A study of Mus musculus with 12 samples.

Results

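The protein folding chaperones described here are 42 genes chosen by name: the Hsp70, Hsp110, Hsp90, Hsp60 and Hsp40 families, the TRiC chaperonin, the chaperones of the endoplasmic reticulum (ER), those that work beside the ribosome, and a few co-chaperones. All 42 were found, each as 1 transcript, among the 21669 transcript names counted in each library. They were followed in ribosome profiling and RNA sequencing of left ventricular tissue from adult hearts of wild-type (WT) mice and of mice without *Rpl3l* (Rpl3l-/-, KO). Ribosome profiling counts the short stretches of mRNA that stay covered by a ribosome during an RNase I digest (footprints), and RNA sequencing of undigested, poly(A)-selected lysate RNA gives the mRNA level. The 12 libraries formed 4 groups of 3, which the design text calls biological replicates: RNA of WT, RNA of KO, footprints of WT and footprints of KO. The product of *Rpl3l* stands in for that of *Rpl3* in the large ribosomal subunit of heart and skeletal muscle. The labels give neither how the allele was made nor whether 1 heart supplied both assays, and they name no agent apart from the cycloheximide in the homogenisation buffer of every sample.

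Chaperones hold unfolded or partly folded protein, keep it from aggregating and release it for another attempt at folding, mostly in cycles driven by ATP. Hsp40 proteins bring clients to Hsp70, Hsp110 proteins make Hsp70 release its nucleotide, and Hsp90 takes over late folding steps of kinases, receptors and, in muscle, myosin. Chaperonins such as TRiC in the cytosol and Hsp60 in mitochondria enclose a client in a barrel, and the nascent polypeptide-associated complex and the ribosome-bound Hsp40 protein of *Dnajc2* meet the chain while it leaves the ribosome. Heat shock factor switches on the cytosolic and mitochondrial sets through heat shock elements, and the unfolded protein response switches on the ER set through ER stress response elements.

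The promoters bear on which of these genes share the letters of those elements, so the matched sites are printed here with 5 to 8 bases on either side. RefSeq promoter windows (GRCm38.p6, 250 bases before to 50 bases after a transcription start) were matched for 36 of the 42 genes, and *Hspa8*, *Hspa9*, *Hsp90aa1*, *Hsp90ab1*, *Cct4* and *Dnajc2* were not matched. Both strands were searched for the ER stress response element, spelled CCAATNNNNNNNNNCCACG (reverse complement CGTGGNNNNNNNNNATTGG), and for 3 adjoining units of the heat shock element, spelled GAANNTTCNNGAA (reverse complement TTCNNGAANNTTC). The first was in 39 of 32851 windows (0.119%) and in 6 of the 36 matched chaperone genes, all 6 of them ER chaperones. Sequences run 5′ to 3′ on the strand of the gene, and capitals mark the match.
Hspa5: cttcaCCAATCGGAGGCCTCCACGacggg
Pdia6: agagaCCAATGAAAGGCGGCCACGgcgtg
Dnajc3: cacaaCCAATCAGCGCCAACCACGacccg
Canx: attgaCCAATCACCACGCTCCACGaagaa
Calr: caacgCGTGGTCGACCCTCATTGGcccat
Hsp90b1, upstream site: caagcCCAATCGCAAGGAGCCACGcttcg
Hsp90b1, downstream site: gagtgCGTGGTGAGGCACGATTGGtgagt
The stretch of *Hspa5* is chr2:34772020-34772048 on the plus strand, with its match ending 47 bases before the start. On the plus strand lie also those of *Pdia6* (chr12:17266486-17266514) and *Dnajc3* (chr14:118937822-118937850), with matches ending 80 and 87 bases before the start. On the minus strand lie those of *Canx* (chr11:50325795-50325823) and *Calr* (chr8:84847070-84847098), ending 127 and 144 bases before the start. *Hsp90b1* has a pair of matches, in chr10:86705633-86705661 and chr10:86705528-86705556 on the minus strand, and the remaining ER genes, *Dnajb11* and *Pdia3*, have none in their windows.

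The heat shock element was in 198 windows (0.603%) and in 4 of the 36 matched chaperone genes: *Hspd1*, *Hspe1*, *Dnajb6* and *Hsph1*. *Hspd1* and *Hspe1* encode Hsp60 and its lid Hsp10 and are transcribed away from each other, so that the same stretch, chr1:55088051-55088079, is read on the minus strand for *Hspd1* and on the plus strand for *Hspe1*.
Hspd1: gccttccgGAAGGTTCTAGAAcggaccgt
Hspe1: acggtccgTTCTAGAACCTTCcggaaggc
Dnajb6: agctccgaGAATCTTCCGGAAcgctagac
The match ends 127 bases before the start of *Hspd1* and 77 bases before that of *Hspe1*, and a match on the other strand, shifted by 5 bases, overlaps it in both windows. The stretch of *Dnajb6* is chr5:29735844-29735872 on the plus strand. The match of *Hsph1* lies after the start, beginning 15 bases past the start of 1 window and 36 bases past that of another. A match is a stretch of letters and was not measured as a bound site.

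Total counts ran from 6635242 to 8459004 in the RNA libraries and from 3827862 to 7474602 in the footprint libraries. Transcripts of the mitochondrial genome took 49.8% to 58.2% of the RNA counts, which left 2814810 to 4023519 counts for nuclear genes. Counts of the targeted gene *Rpl3l* followed the labels, with 2726 to 3329 in WT and 276 to 442 in KO in RNA, and 937 to 1108 in WT and 30 to 65 in KO in footprints. All 6 ventricular cardiomyocyte markers were detected, with summed levels of 44260 to 60390 CPM in RNA (CPM, counts scaled to a common library size with TMM factors within an assay). The first principal component of the RNA libraries (46.2% of the variance) set WT 3, KO 1 and KO 3 against WT 1, WT 2 and KO 2. That of the footprint libraries (38.2%) set WT 1, with a score of 64.1, against the other 5, with scores of -15.3 to -8.77.

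No chaperone gene differed between KO and WT past the threshold, which was an adjusted p of 0.05 over all genes in the quasi-likelihood test of edgeR. Of the 42 genes, 40 passed the filter on low counts in both assays, and the heat-inducible Hsp70 genes *Hspa1a* and *Hspa1b* did not. In RNA 0 of 40 were called, with 0.0119% of all 8379 genes tested called. In footprints 0 of 40 were called, with 0.00897% of 11153 genes called. For footprints relative to mRNA, the translational efficiency given by the assay-by-genotype interaction, 0 of 40 were called, with 0.0% of 8044 genes called. The single gene called in RNA and in footprints was *Rpl3l* itself, so the tests made almost no calls anywhere. DESeq2 also called 0 members in each comparison.

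At an unadjusted p below 0.05 the counts were 0 of 40 in RNA, 0 of 40 in footprints and 1 of 40 in efficiency, in edgeR as in DESeq2, where edgeR gave 2.54%, 5.96% and 3.73% of all genes. The median log2 fold change of the chaperone genes was -0.02 in RNA, 0.02 in footprints and 0.05 in efficiency, and that of all genes -0.01, 0.00 and 0.01. Of the 40, 18 lay above 0 in RNA, 23 in footprints and 28 in efficiency, where 49.1%, 50.2% and 51.7% of all genes did. The efficiency count ran from 19 to 31 over the alternatives. The 95% interval of the log2 fold change lay inside 1.5-fold in both directions for 25 of the 40 in RNA and 32 of the 40 in footprints, where 25.6% and 29.0% of all genes did so. All 40 lay inside 2-fold in footprints, and 35 did in RNA. The data thus bound the genotype difference of most chaperone footprints, a high-count set, more tightly than that of most other genes.

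**Figure D1:**
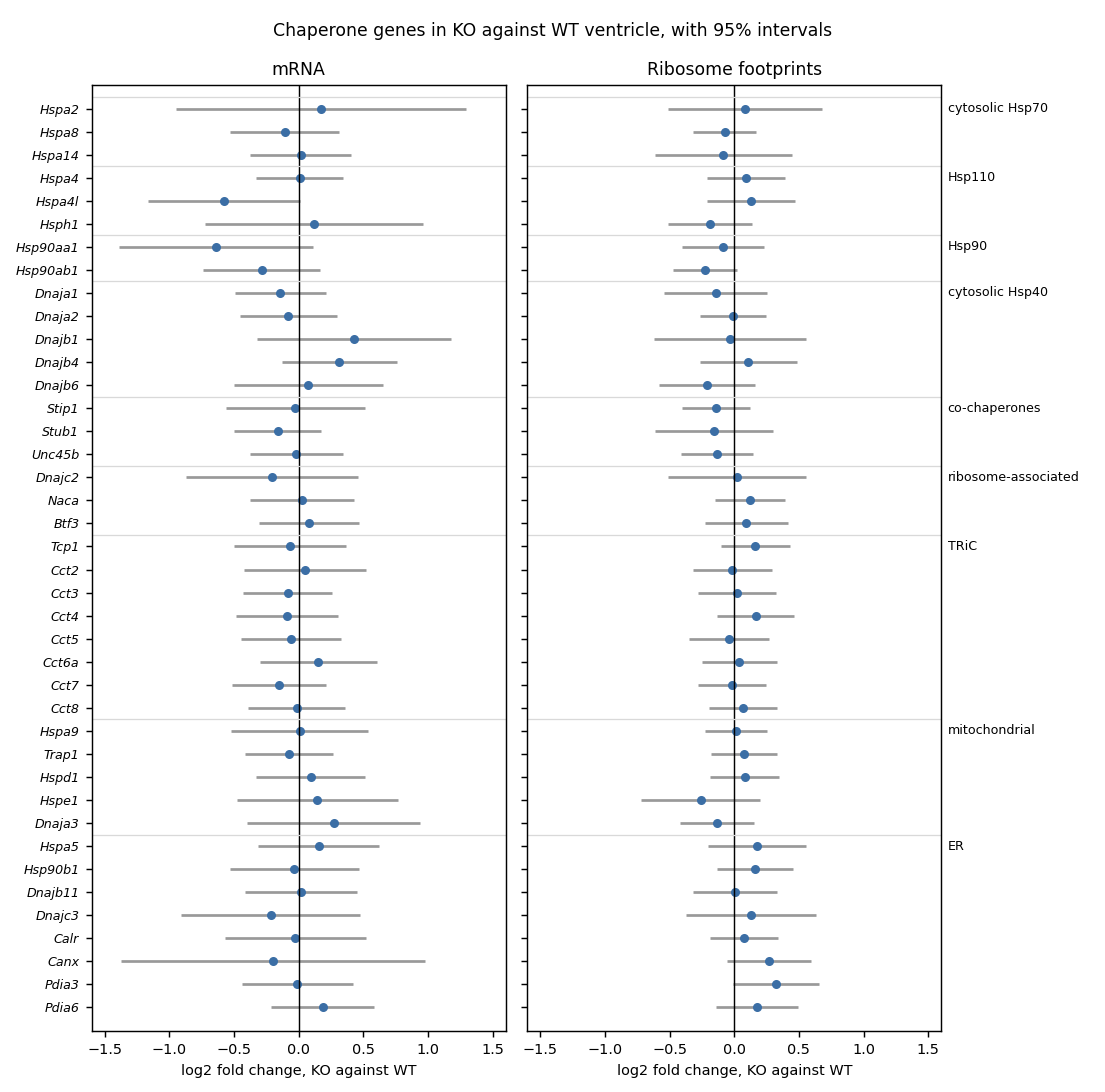
Log2 fold change, KO against WT, of the 40 chaperone genes tested, in mRNA (left) and ribosome footprints (right), with points for edgeR's estimates and bars for 95% intervals; horizontal lines part the classes. No gene passed the adjusted threshold, the bars are shorter for footprints, and the 8 ER genes at the bottom have footprint estimates above 0 (7 of 8 under 7 of the 12 alternatives).

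The chaperone genes together took 1.86% ± 0.11 of the nuclear mRNA counts in WT and 1.78% ± 0.094 in KO, and 1.52% ± 0.058 and 1.52% ± 0.030 of the nuclear footprint counts (SD, n = 3 each). A few genes held most of this. In WT mRNA, *Hspa8*, *Hsp90ab1*, *Hsp90aa1* and *Naca* made up 66.8% of the members' summed CPM. In WT footprints *Hsp90ab1*, *Hspa8*, *Hspa9* and *Hspa5* made up 49.2%. The footprints were thus spread over more genes, among them mitochondrial and ER chaperones whose mRNA counts were modest.

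Among the cytosolic Hsp70 genes, *Hspa8*, which encodes the constitutive heat shock cognate protein, was by far the most abundant (chr9:40800984-40805200, plus strand, GRCm38, GENCODE M21). Its mRNA level was 2591, 1869 and 1938 CPM in WT libraries 1 to 3 and 2151, 1865 and 1913 CPM in KO libraries 1 to 3. Its footprint level was 2204, 2206 and 1844 CPM in WT and 1887, 2192 and 1861 CPM in KO. The groups overlapped in both assays, with log2 fold changes of -0.11 (SE 0.19) in mRNA and -0.07 (SE 0.12) in footprints. *Hspa8* has processed copies in the genome: 77.9% of its 28-base windows also occur in a transcript of another annotated gene, none of them among the names counted here.

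The stress-inducible pair *Hspa1a* and *Hspa1b*, neighbours on chromosome 17, was close to silent. *Hspa1a* had 3, 3 and 0 mRNA counts in WT and 0, 1 and 1 in KO, and 0, 0 and 7 footprint counts in WT and 0, 2 and 0 in KO. *Hspa1b* had 0 mRNA counts except for 4 in KO 2, and 7, 6 and 5 footprint counts in WT and 3, 5 and 0 in KO. A level of 3 counts corresponded to 0.304 to 0.449 CPM in RNA and 0.404 to 0.791 CPM in footprints, so most of these values were at or near the floor. Since 66.2% of the windows of *Hspa1a* also occur in *Hspa1b*, reads of the pair cannot be told apart with confidence. The immediate early genes *Fos*, *Jun*, *Egr1* and *Atf3*, which handling of tissue can raise, summed to 3.77 to 7.23 CPM in WT RNA and 3.99 to 6.18 CPM in KO RNA. Their footprints were higher, at 89.67 to 97.91 CPM in WT and 86.65 to 133.7 CPM in KO, with KO 3 the highest. Of the remaining cytosolic Hsp70 genes, *Hspa2* had log2 fold changes of 0.17 (SE 0.50) in mRNA and 0.08 (SE 0.28) in footprints. *Hspa14*, which encodes the Hsp70 partner of the ribosome-bound Hsp40, had 0.02 (SE 0.18) and -0.09 (SE 0.25).

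The Hsp110 genes encode large Hsp70 relatives that act as nucleotide exchange factors, and they held the 1 member with an unadjusted p below 0.05. *Hspa4l* (chr3:40745430-40796103, plus strand) had an mRNA level of 11.04, 10.9 and 8.17 CPM in WT and 9.01, 4.49 and 6.58 CPM in KO. Its footprint level was 72.2, 64.8 and 84.4 CPM in WT and 78.2, 89.3 and 74.8 CPM in KO. The groups overlapped in both, with KO 2 lowest in mRNA and highest in footprints. The log2 fold change was -0.58 (SE 0.26) in mRNA and 0.13 (SE 0.16) in footprints. In efficiency it was 0.73 (SE 0.31, 95% interval 0.07 to 1.40), with an unadjusted p of 0.032 and an adjusted p of 1.00 in edgeR's quasi-likelihood test, so the difference was not called. It was 0.46 without KO 2 and 1.02 without KO 1, and the mRNA value was -0.38 without KO 2.

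*Hspa4*, the most abundant Hsp110 gene per length, had 70.5, 72.2 and 69.9 CPM of mRNA in WT and 69.9, 74.9 and 69.1 CPM in KO. Its footprints were 244, 185 and 232 CPM in WT and 243, 250 and 210.4 CPM in KO, and the groups overlapped in both assays. The log2 fold changes were 0.01 (SE 0.15) in mRNA and 0.09 (SE 0.14) in footprints. *Hsph1* encodes the heat-inducible Hsp110. Its footprints were 96.9, 96.2 and 106 CPM in WT and 96.1, 74.6 and 91.8 CPM in KO. Every KO library lay below every WT library, only just for the nearest pair at 96.2 and 96.1 CPM, and the log2 fold change was -0.19 (SE 0.15). The value was -0.08 without KO 2. Its mRNA did not follow this order, at 4.73, 6.88 and 11.4 CPM in WT and 12.6, 4.79 and 7.998 CPM in KO.

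Both cytosolic Hsp90 genes had log2 fold changes below 0 in both assays, except that *Hsp90aa1* footprints lay above 0 without WT 1. *Hsp90ab1*, the constitutive form (chr17:45567775-45573271, minus strand), had 2407, 1979 and 1646 CPM of mRNA in WT and 1623, 1906 and 1418 CPM in KO. Its footprints were 2702, 3403 and 2603 CPM in WT and 2443, 2430 and 2562 CPM in KO. The groups overlapped in mRNA, whereas every KO footprint library lay below every WT library. The log2 fold change was -0.29 (SE 0.20) in mRNA and -0.23 (SE 0.12) in footprints, with an unadjusted p of 0.068 and an adjusted p of 0.835 for footprints in edgeR's quasi-likelihood test. The footprint value was -0.10 without WT 2, and the mRNA value -0.14 without WT 1 and -0.16 with the split of the RNA libraries as a factor.

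*Hsp90aa1*, the inducible form (chr12:110690605-110696395, minus strand), had a log2 fold change in mRNA of -0.64 (SE 0.34, adjusted p = 0.999 in edgeR's quasi-likelihood test). Its mRNA level was 1391, 1182 and 533 CPM in WT and 683, 840.1 and 468 CPM in KO, so WT 3 lay among the KO libraries. Its footprints were 426, 292 and 343 CPM in WT and 364.5, 297.5 and 338 CPM in KO, a log2 fold change of -0.09 (SE 0.15). The mRNA value was -0.25 with the split of the RNA libraries as a factor, -0.37 without WT 1 and -0.96 without WT 3, and the footprint value was 0.07 without WT 1. Of the windows of *Hsp90aa1*, 63.9% also occur in another annotated gene, and 0.369% in *Hsp90ab1* or another listed gene.

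The co-chaperones of the Hsp90 route had footprint log2 fold changes below 0 in 3 of 3 cases, and in 2 of 3 without WT 2. *Stip1* encodes Hop, which links Hsp70 to Hsp90. Its footprints were 249.5, 234 and 224 CPM in WT and 218, 217 and 208 CPM in KO. Every KO library lay below every WT library, with a log2 fold change of -0.14 (SE 0.12). *Unc45b* encodes the muscle chaperone that folds myosin with Hsp90, and it had the highest footprint level per length of the class. Its footprints were 401, 497 and 502 CPM in WT and 417, 393.5 and 466 CPM in KO, and the groups overlapped (log2 fold change -0.13, SE 0.13). *Stub1* encodes CHIP, the ubiquitin ligase that marks chaperone clients for degradation. Its mRNA, the highest per length of the class, was 78.1, 77.1 and 81.6 CPM in WT and 70.9, 71.4 and 69.2 CPM in KO, with no overlap and a log2 fold change of -0.16 (SE 0.15). Its footprints were 36.4, 69.3 and 59.9 CPM in WT and 52.0, 43.5 and 52.6 CPM in KO, and WT 1 was the lowest of all 6.

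Groups that do not overlap were about as common among the chaperone genes as over all genes. In mRNA, 0 of 40 had every KO library above every WT library and 2 of 40 (*Cct3* and *Stub1*) had every KO library below, where 4.14% and 3.19% of all genes did. In footprints 1 of 40 (*Tcp1*) lay above and 3 of 40 (*Hsp90ab1*, *Hsph1* and *Stip1*) below, where 6.27% and 5.77% of all genes did.

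The cytosolic Hsp40 genes, which deliver clients to Hsp70, had footprints of 12.7 to 450.4 CPM across genes and libraries. *Dnajb1* encodes the stress-inducible Hsp40. Its mRNA was 2.29, 1.56 and 2.72 CPM in WT and 2.07, 2.995 and 3.75 CPM in KO, a log2 fold change of 0.43 (SE 0.34) with overlapping groups. The mRNA value was 0.24 without WT 2 and 0.19 without KO 3. Its footprints gave -0.03 (SE 0.28). *Dnajb4*, a close relative, had 6.74, 7.66 and 6.08 CPM of mRNA in WT and 9.16, 7.64 and 8.61 CPM in KO. KO 2 lay just below WT 2, and the log2 fold change was 0.31 (SE 0.20) in mRNA and 0.11 (SE 0.17) in footprints.

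*Dnajb6* encodes an Hsp40 that suppresses aggregation and is found at the Z-disc of muscle. Its footprints were 55.3, 42.2 and 51.6 CPM in WT and 43.4, 45.3 and 40.2 CPM in KO. The groups overlapped only through WT 2, with a log2 fold change of -0.21 (SE 0.18), which was -0.13 without WT 1. *Dnaja2*, the most abundant gene per length of the cytosolic Hsp40 class, had footprints of 401, 417 and 446.5 CPM in WT and 398, 450.4 and 405 CPM in KO. Its mRNA was 46.3, 48.6 and 56.8 CPM in WT and 53.8, 42.8 and 46.9 CPM in KO. The log2 fold changes of *Dnaja2* were -0.01 (SE 0.12) in footprints and -0.08 (SE 0.17) in mRNA, and those of its paralog *Dnaja1* -0.14 (SE 0.19) and -0.14 (SE 0.16).

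The chaperones that meet the nascent chain at the ribosome sit nearest to the particle that *Rpl3l* belongs to, and 0 of 4 were called. *Naca*, which encodes the alpha subunit of the nascent polypeptide-associated complex (chr10:128035575-128048633, plus strand), had 687, 579 and 534 CPM of mRNA in WT and 579.5, 701 and 552 CPM in KO. Its footprints were 226.5, 217 and 195 CPM in WT and 239, 235 and 219.9 CPM in KO. Only WT 1 reached into the KO range, and the log2 fold change was 0.03 (SE 0.18) in mRNA and 0.12 (SE 0.13) in footprints. *Btf3*, the beta subunit, gave 0.08 (SE 0.17) and 0.09 (SE 0.15). Of the windows of *Naca* and *Btf3*, 68.4% and 40.2% also occur in other annotated genes.

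*Dnajc2*, the ribosome-associated Hsp40 (chr5:21757267-21785251, minus strand), stood at the low end of footprints per mRNA. Its mRNA was 228, 192 and 116 CPM in WT and 134, 218.5 and 111 CPM in KO, but its footprints were only 17.1, 13.4 and 16.3 CPM in WT and 15.8, 14.9 and 17.0 CPM in KO. The log2 fold change was -0.21 (SE 0.30) in mRNA and 0.02 (SE 0.25) in footprints. Whether reads of other genes entered its mRNA count was not tested, and 26.5% of its windows occur in another annotated gene.

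TRiC is a ring of 8 different subunits that folds actin and tubulin, so its genes are compared with each other here as well as between genotypes. All 8 had footprint log2 fold changes between -0.04 and 0.17, and the 95% interval lay inside 1.5-fold for 8 of 8. In mRNA the values ran from -0.15 to 0.15. *Tcp1*, the alpha subunit, had footprints of 233, 228 and 247 CPM in WT and 260.3, 282.5 and 249.6 CPM in KO. Every KO library lay above every WT library, with a log2 fold change of 0.16 (SE 0.12). *Cct3* had mRNA levels of 82.4, 90.5 and 82.0 CPM in WT and 81.7, 78.9 and 79.5 CPM in KO, no overlap, and a log2 fold change of -0.09 (SE 0.15).

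Per length, the TRiC subunits were closer to each other in footprints than in mRNA. *Cct6a* was left out of this comparison because its listed transcript has no coding sequence in GENCODE M21. Among the other 7, footprints per kb of coding sequence in WT ran from 93.4 CPM per kb for *Cct4* to 145.5 for *Cct8*, a ratio of 1.56 and a coefficient of variation of 16.6%. In KO the ratio was 1.57 and the coefficient 18.1%. The mRNA level per kb of transcript in WT ran from 38.4 for *Cct8* to 96.5 for *Cct5*, a ratio of 2.52 and a coefficient of variation of 40.3%, and in KO the ratio was 2.47. Of these 7, *Cct8* was thus the lowest in mRNA and the highest in footprints in WT, close to *Tcp1* at 39.2 and 141.5. In KO *Tcp1* held both places, at 37.4 CPM per kb in mRNA and 158.4 in footprints. With *Cct6a* included, at 10.96 CPM per kb the lowest in mRNA, the mRNA ratio in WT was 8.80. Footprints of *Cct8* were 238, 247 and 233 CPM in WT and 257, 260.1 and 233 CPM in KO, and mRNA of *Cct5* was 209.9, 169.5 and 157 CPM in WT and 165, 163 and 185.5 CPM in KO. Both overlapped between genotypes.

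**Figure D2:**
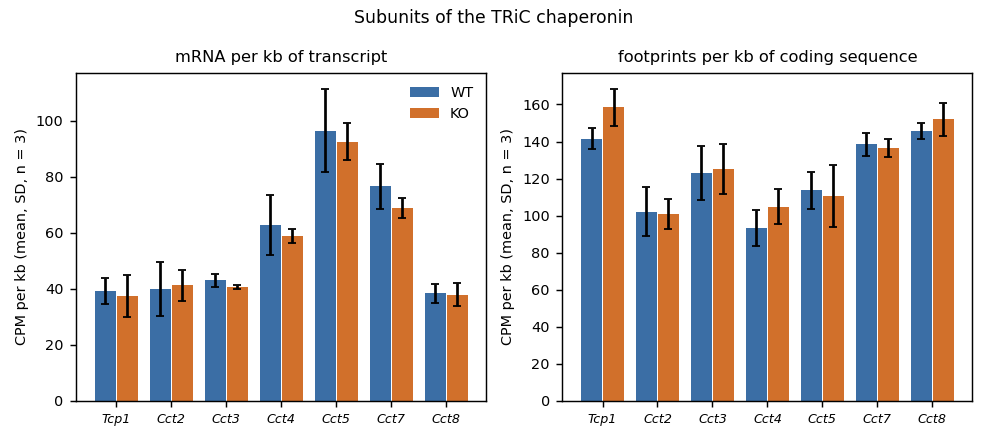
Levels of 7 TRiC subunit genes in WT (blue) and KO (orange) as mRNA CPM per kb of transcript (left) and footprint CPM per kb of coding sequence (right), with bars for the mean and error bars for the SD of 3 libraries. In WT the subunits span 2.52-fold in mRNA and 1.56-fold in footprints, with *Cct5* the highest in mRNA.

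The mitochondrial chaperones fold proteins imported into the matrix, and a heart cell holds many mitochondria. Their footprints summed to 16.1% of all chaperone footprints in WT and their mRNA to 3.74% of chaperone mRNA. *Hspa9*, the mitochondrial Hsp70, had footprints of 1365, 1213 and 1272 CPM in WT and 1285, 1410.0 and 1192 CPM in KO, a log2 fold change of 0.01 (SE 0.11). *Hspd1*, which encodes Hsp60 (chr1:55077835-55088024, minus strand), had 118, 101 and 139 CPM of mRNA in WT and 149, 115 and 118.5 CPM in KO. Its log2 fold changes were 0.09 (SE 0.19) in mRNA and 0.08 (SE 0.13) in footprints. Both genes overlapped between genotypes.

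*Hspe1*, the Hsp10 lid of the Hsp60 barrel, had a footprint log2 fold change below 0, where that of its partner *Hspd1* was above 0. Its footprints were 27.2, 26.4 and 24.5 CPM in WT and 25.3, 21.6 and 18.02 CPM in KO, overlapping only through KO 1. The log2 fold change was -0.26 (SE 0.22), and -0.14 without KO 3. Its mRNA was 8.89, 8.70 and 8.80 CPM in WT and 13.6, 5.69 and 9.82 CPM in KO, so the KO libraries lay on both sides of WT. *Dnaja3*, the mitochondrial Hsp40, had 2.87, 4.68 and 6.08 CPM of mRNA in WT and 6.20, 4.19 and 6.18 CPM in KO. Its log2 fold change was 0.27 (SE 0.30) in mRNA and -0.13 (SE 0.13) in footprints, and the mRNA value was 0.04 without WT 1 and 0.55 without WT 3. *Trap1*, the mitochondrial Hsp90, gave -0.08 (SE 0.15) and 0.07 (SE 0.12).

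The ER chaperones had footprint log2 fold changes above 0 for 8 of 8 genes, and for 7 of 8 under 7 of the 12 alternatives: DESeq2, median-of-ratios factors, a minimum mean of 50 counts, no mitochondrial genes, and without WT 2, KO 1 or KO 3. The smaller Hsp90 and co-chaperone classes lay below 0 for 2 of 2 and 3 of 3. The ER values ran from 0.00 for *Dnajb11* to 0.32 for *Pdia3*, with a median of 0.17, and 50.2% of all genes lay above 0. None was called. In mRNA 3 of 8 lay above 0 with a median of -0.02, and the alternatives gave 2 to 7 of 8. In efficiency 8 of 8 lay above 0 with a median of 0.17, where 51.7% of all genes did, and the alternatives gave 5 to 8 of 8. The summed ER footprints were 3983, 2679 and 2948 CPM in WT and 3404, 3780 and 3695 CPM in KO, so WT 1 was the highest of all 6 libraries and the other WT libraries were the lowest. These 8 genes share ER location and, for 6 of them, the promoter element printed above. They were chosen as a class by name, with earlier results of these data known. All 8 values come from the same libraries, so they are not independent of each other.

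*Pdia3*, the disulfide isomerase that works on glycoproteins with calnexin and calreticulin (chr2:121413775-121438687, plus strand), had footprints of 362, 228 and 277 CPM in WT and 338, 364 and 381 CPM in KO. WT 1 lay within the KO range and the other WT libraries below it. The log2 fold change was 0.32 (SE 0.16), with an unadjusted p of 0.059 and an adjusted p of 0.834 in edgeR's quasi-likelihood test, and it was 0.18 without WT 2. Its mRNA was 35.6, 32.6 and 40.8 CPM in WT and 42.5, 27.7 and 37.9 CPM in KO, a log2 fold change of -0.01 (SE 0.19).

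*Canx* encodes calnexin, the membrane-bound lectin chaperone (chr11:50293961-50325673, minus strand). Its footprints were 554, 393 and 530.0 CPM in WT and 506, 695 and 579 CPM in KO, with a log2 fold change of 0.27 (SE 0.15), which was 0.13 without WT 2 and 0.14 without KO 2. Its mRNA varied most of all chaperone genes, at 191, 136.5 and 41.7 CPM in WT and 60.9, 188 and 73.2 CPM in KO, a 4.59-fold range that did not follow genotype.

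*Hspa5* encodes BiP, the Hsp70 of the ER (chr2:34771970-34777547, plus strand). Its footprints were 1365, 764 and 796 CPM in WT and 1057, 1111 and 1137 CPM in KO. WT 1 was the highest library and the other WT libraries the lowest, and the log2 fold change was 0.18 (SE 0.18). *Hsp90b1*, the ER Hsp90, had the highest mRNA level per length of the class, at 547, 382 and 320.3 CPM in WT and 401.5, 467 and 350.4 CPM in KO. Its log2 fold change was -0.04 (SE 0.22) in mRNA and 0.16 (SE 0.14) in footprints. Calreticulin (*Calr*), *Pdia6*, *Dnajc3* and *Dnajb11* had footprint values of 0.07 (SE 0.12), 0.18 (SE 0.15), 0.13 (SE 0.24) and 0.00 (SE 0.15).

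The size of the ER difference depended on the WT 1 footprint library, the one set apart on the first principal component. Without WT 1 the median ER log2 fold change was 0.33 and 8 of 8 lay above 0. WT 1 had the highest summed ER footprints of the WT libraries, at 3983 CPM against 2679 and 2948 CPM, so its removal lowered the WT level. Without WT 1, 5 of 8 ER genes had an unadjusted p below 0.05: *Hspa5*, *Pdia3*, *Hsp90b1*, *Canx* and *Pdia6*. *Hspa5* gave 0.50 (SE 0.13, unadjusted p = 0.0011, adjusted p = 0.421 in edgeR's quasi-likelihood test) and *Pdia3* 0.52 (SE 0.15, adjusted p = 0.499). Among all 40 chaperone genes 7 had an unadjusted p below 0.05, the others being *Hsp90ab1* and *Stub1*, both below 0, where 7.14% of the 11431 genes tested without WT 1 did. No member passed the adjusted threshold. Without WT 2, in contrast, the median was 0.05 with 7 of 8 above 0, and without WT 3 it was 0.09. In the same test, ER genes under the unadjusted 0.05 level numbered 0 of 8 with all libraries kept and 1 of 8 without KO 1. They numbered 0 of 8 when WT 2, WT 3, KO 2 or KO 3 was left out.

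Markers of other cell types were read beside this, since other cells of the heart also carry these genes, and in bulk tissue fewer cells of a type and less RNA per cell cannot be told apart. The footprints of 4 of 4 fibroblast markers summed to 2358 to 2881 CPM in WT and 2510 to 3038 CPM in KO, and those of 3 of 3 endothelial markers to 725 to 862 CPM in WT and 829 to 1011 CPM in KO. Those of 3 of 3 macrophage markers summed to 239 to 263 CPM in WT and 198 to 238 CPM in KO. Every KO library lay below every WT library, only just for the nearest pair at 239 and 238.1 CPM. The RNA of these macrophage markers overlapped between genotypes, at 20.5 to 27.03 CPM in WT and 19.77 to 26.73 CPM in KO. Footprints of 2 of 2 erythroid markers summed to 203 to 844.5 CPM in WT and 378 to 849 CPM in KO. Those of 2 of 2 adipocyte markers summed to 36 to 193 CPM in WT and 51.2 to 106.7 CPM in KO. WT 1 was the lowest library in both lists. Those of 4 of 4 atrial markers summed to 2382 to 3364 CPM in WT and 2681 to 3370 CPM in KO. None of these markers was at 0. Their part in the result was not tested.

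**Figure D3:**
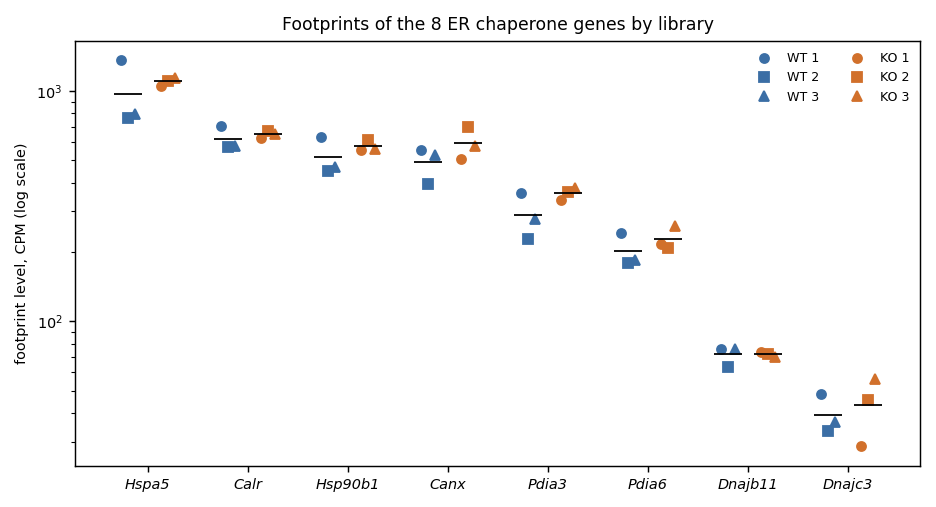
Footprint level of each ER chaperone gene in the 3 WT (blue) and 3 KO (orange) libraries, in CPM on a log scale, with horizontal lines for the group means. In *Hspa5*, *Hsp90b1* and *Calr* the WT 1 circle lies above all KO libraries and the other WT libraries lie below them.

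Grouped by promoter letters, neither set held a call, and the difference between the sets was not tested. The 6 genes with an ER stress response element had 6 of 6 footprint log2 fold changes above 0 (median 0.17). In mRNA 2 of 6 lay above 0, but 6 of 6 did with the split of the RNA libraries as a factor (median 0.11) or without WT 1 (median 0.23). The 4 genes with the heat shock element as spelled above had 1 of 4 above 0 in footprints (median -0.20) and 4 of 4 in mRNA (median 0.11). The stress-inducible *Hspa1a*, *Hspa1b* and *Dnajb1* had no match to this exact spelling. *Hspa8*, *Hsp90aa1* and *Hsp90ab1* had no window to search, so the 4 do not stand for all genes that heat shock factor may switch on. The footprint counts were the same under every alternative run for the heat shock set, and ran from 5 to 6 for the ER set. The mRNA count of the heat shock set ran from 0 to 4, so its direction in mRNA was not settled. All these sets are small and their genes overlap with the classes described above.

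In mRNA the libraries differed along an axis that was not the genotype, and the chaperone genes took part in it. All 3 of WT 3, KO 1 and KO 3 lay above the other 3 libraries in 8 of 40 genes: *Cct2*, *Dnaja3*, *Hspa9*, *Hspd1*, *Hsph1*, *Pdia3*, *Pdia6* and *Stip1*. They lay below in 6 of 40: *Calr*, *Canx*, *Dnajc2*, *Hsp90aa1*, *Hsp90ab1* and *Hspa4*. Of all genes 17.8% and 18.3% did so, so these shares of the chaperone genes were near the background. With this split as a factor in the RNA fit, 0 members were called between genotypes. The highest RNA library exceeded the lowest by a median of 1.53-fold, over 1.5-fold for 22 genes and over 2-fold for 10. In footprints the median was 1.35-fold, with 10 genes over 1.5-fold and 0 over 2-fold.

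**Figure D4:**
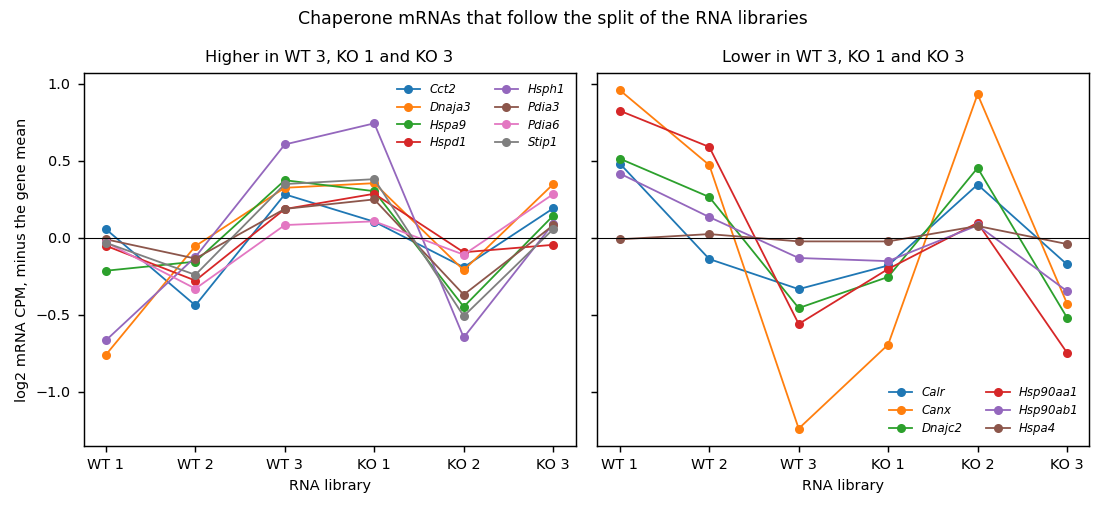
Log2 mRNA CPM minus the mean of the gene in each RNA library, for the 8 chaperone genes higher (left) and the 6 lower (right) in WT 3, KO 1 and KO 3; lines join the values of a gene and carry no order. *Canx* spans the widest range, with WT 1 and KO 2 near the top and WT 3 at the bottom.

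Footprints per mRNA, the footprint CPM over the mRNA CPM on the log2 scale relative to the median gene, were taken between libraries of the same genotype and number. The labels do not say that these share a heart, and the SDs depend on this matching. The ratios differed far more between chaperone genes than between genotypes. In WT they ran from 3.80 for *Dnaja3* and 2.72 for *Dnajb4* to -3.07 for *Hsp90aa1*, -3.11 for *Naca* and -5.05 for *Dnajc2*, a 460-fold range. The SD across the 40 genes was 1.75, and across all genes 1.91. The Hsp110 genes, 4 of 5 mitochondrial genes, 4 of 5 Hsp40 genes and 6 of 8 ER genes lay above the median gene. Both Hsp90 genes, the ribosome-associated genes and 7 of 8 TRiC genes lay below it. These ratios carry the length and region that were counted, and reads shared with processed copies, so their order is a description of these count tables.

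The order was similar in KO. Across the 40 genes the WT and KO means correlated at a Pearson r of 0.992 and a Spearman rho of 0.981, as a description across genes that share libraries. The largest difference between the means was that of *Hspa4l*, with a WT mean of 1.20 ± 0.42 and a KO mean of 1.93 ± 0.56 (SD, n = 3 per group). The KO mean was above the WT mean for 26 of the 40. The mRNA and footprint log2 fold changes across the same 40 genes had an r of 0.00 and a rho of 0.04. None of these changes was called, and their median SEs were 0.197 in mRNA and 0.145 in footprints. This r therefore cannot show whether mRNA and footprints change together.

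**Figure D5:**
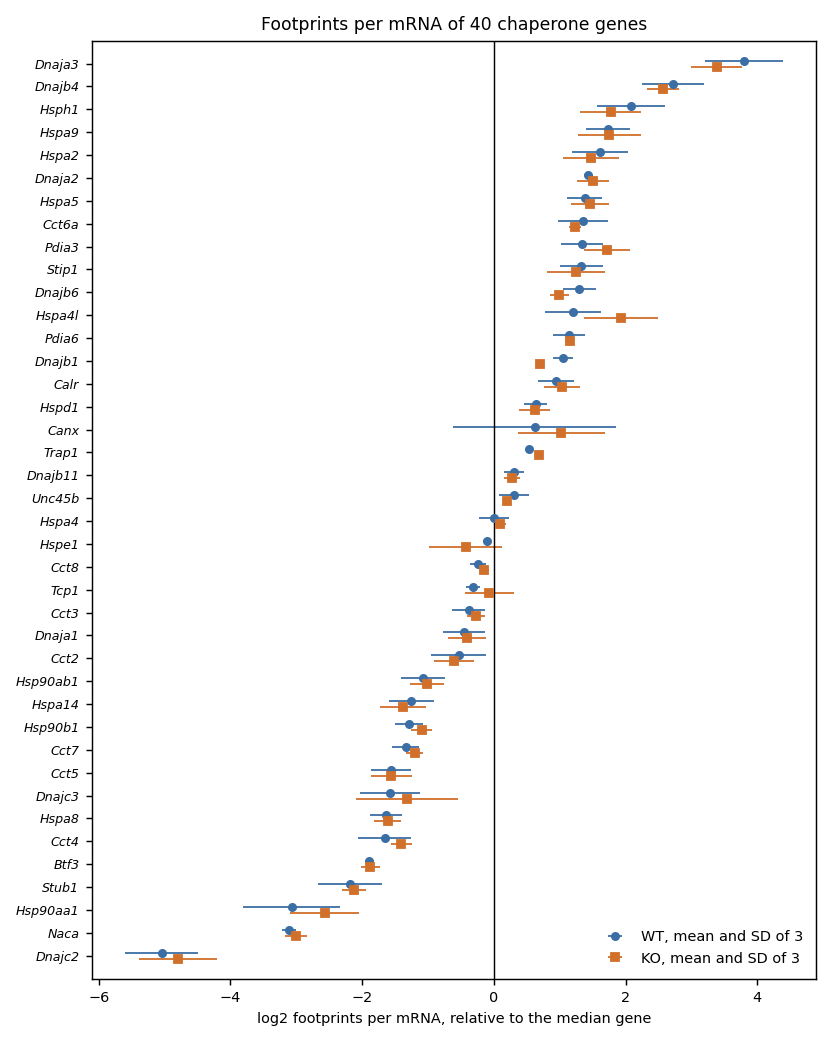
Footprints per mRNA on the log2 scale, relative to the median gene, of 40 chaperone genes in WT (circles) and KO (squares), as means with the SD of 3 libraries. The genes span from *Dnaja3* at 3.80 to *Dnajc2* at -5.05 in WT, and the WT and KO points of a gene lie close together.

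Shares within pairs of related genes are free of scaling between libraries, and 7 pairs were compared in both assays by exact two-sided permutation tests. With 3 against 3 libraries the smallest possible p is 0.1. It was reached in 2 of 14 tests, each with an adjusted p of 0.7. The share of *Hspe1* in the footprints of *Hspe1* and *Hspd1* averaged 4.40% ± 0.42 over the WT libraries and 3.48% ± 0.43 over the KO libraries (SD, n = 3 per group, exact permutation). Of the windows of *Hspe1* and *Hspd1*, 50.5% and 57.7% also occur in other annotated genes, and whether reads of those genes entered this share was not tested. The share of *Hspa1a* and *Hspa1b* in the footprints of these genes and *Hspa8* averaged 0.0914% ± 0.040 over WT and 0.0227% ± 0.023 over KO (SD, n = 3 per group, exact permutation), from the few counts given above. *Hsp90aa1* made up 32.8% ± 7.3 of the cytosolic Hsp90 mRNA in WT and 28.3% ± 3.1 in KO, but only 11.1% ± 2.9 and 11.8% ± 1.1 of the footprints (SD, n = 3 each). *Hspa4l* made up 12.4% ± 1.7 of the mRNA of *Hspa4* and *Hspa4l* in WT and 8.60% ± 2.9 in KO, and 25.2% ± 2.0 and 25.6% ± 1.1 of the footprints (SD, n = 3 each).

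A wider list of 59 genes of the folding network, including heat shock factor, cyclophilin and FKBP-type partners of Hsp90, prefoldin, Bag proteins and ER enzymes, held no call either. In mRNA there were 0 calls among 53 tested, and 1 gene reached an unadjusted p below 0.05, *Hspa12b*, a distant Hsp70 relative, with a log2 fold change of 0.44 (SE 0.18). *Hsf1*, which encodes the heat shock factor, gave 0.39 (SE 0.21), with 7.17 to 11 CPM in WT and 11.3 to 11.7 CPM in KO. Every KO library lay above every WT library in 4 of 53 genes (*Hsf1*, *Hspa12b*, *Hspbp1* and *Smyd1*) and below in 0, where 4.14% and 3.19% of all genes did. Footprints of these 4 genes overlapped between genotypes. Their footprint log2 fold changes were -0.11 (SE 0.27) for *Hsf1*, -0.13 (SE 0.19) for *Hspa12b*, -0.12 (SE 0.19) for *Hspbp1* and -0.16 (SE 0.13) for *Smyd1*. In footprints of the whole list there were 0 calls among 59, and 2 genes reached an unadjusted p below 0.05. Of all genes 2.54% and 5.96% did so in mRNA and footprints. *Dnajc19*, which encodes a J protein of the mitochondrial import motor, gave 0.50 (SE 0.22). *Fkbp4*, which encodes an Hsp90-binding immunophilin, gave -0.25 (SE 0.11), with 505.5 to 540.4 CPM in WT and 434 to 439 CPM in KO. The mRNA of *Dnajc19* and *Fkbp4* gave -0.09 (SE 0.17) and -0.13 (SE 0.18), with overlapping groups. Every KO footprint library lay below every WT library in 4 of 59 genes (*Fkbp4*, *Ahsa2*, *Dnaja4* and *St13*) and above in 3 of 59 (*Dnajc19*, *Txndc5* and *Vbp1*), where 5.77% and 6.27% of all genes did. *Ahsa2*, which encodes a relative of the Hsp90 ATPase activator, gave -0.38 (SE 0.20) and *Dnaja4* -0.33 (SE 0.16). Over the whole list 27 of 59 footprint log2 fold changes lay above 0, with a median of -0.02.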

How the data were processed

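Left ventricular tissue of 3 WT and 3 Rpl3l-/- hearts per assay was profiled by ribosome footprinting and poly(A) RNA sequencing, per the labels' protocols. The authors deposited unnormalised counts, as whole numbers for each named transcript. The submitters' processing notes name cutadapt 1.18 and Bowtie2 2.4.2. The genome build, the counter, the region counted, the use of strand and the treatment of reads with several matches are not given in the sources used here. Reads of paralogs and processed copies may therefore be split or shared. Of the listed names, 98.9% matched GENCODE M21 (GRCm38), from which coordinates and lengths were taken. Total counts, from 3827862 to 8459004 per library, set the precision, and a floor of 3 counts covers counting error only.

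Counts were tested with edgeR 4.0.16 in R 4.3.3: filterByExpr (minimum count 10), TMM factors, quasi-likelihood F tests and Benjamini-Hochberg adjustment over all genes, with a threshold of 0.05. RNA and footprints were fitted apart, over 6 libraries each with a genotype term, and efficiency as the interaction over all 12 libraries. A standard error is the size of the log2 fold change over the square root of F. CPM per kb used transcript length for RNA and coding length for footprints. Footprints per mRNA set libraries of the same genotype and number against each other, after adding 0.5 to each CPM. Shares of related genes were compared by exact permutation tests. Principal components used log2 CPM with a prior count of 2. Alternatives were median-of-ratios scaling, DESeq2 1.42.0, dropping the filter, requiring a mean count of 50, dropping mitochondrially encoded genes, a replicate block, the split of the RNA libraries as a factor, leaving out each replicate, and 1 count added to both genes of a pair. Sequences are from RefSeq promoter tables.

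The genes, classes and lists were chosen with earlier results of these data known. Genes given library by library were those with an adjusted or unadjusted p below 0.05, those without overlap and a log2 fold change of at least 0.3 in size, the 6 largest changes per assay and the highest level per length in each class. *Cct3*, *Stip1*, *Tcp1*, *Dnajc2* and the low-count Hsp70 genes were given so after their values were seen, as were the genes named from the wider list.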

Additional observations from a re-analysis of the deposited data

How the results depend on the processing

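No chaperone gene passed the adjusted threshold in RNA, footprints or efficiency under any alternative run, including each library left out in turn. With the replicate number as a block, 0 members were called in each comparison. Same-numbered WT and KO libraries were compared by their deviations from the genotype means across genes. These deviations correlated at -0.18, 0.33 and 0.39 in RNA and at 0.06, 0.03 and 0.01 in footprints. The replicate numbers were therefore not taken as pairs. Counts at an unadjusted p below 0.05 moved more. The block gave 2 of 40 in RNA, 1 of 40 in footprints and 1 of 40 in efficiency, where 3.63%, 5.70% and 3.54% of all genes reached it. Without a filter *Hsp90aa1* and *Hspa4l* reached it in RNA, *Canx* and *Pdia3* in footprints, and *Hspa4l* and *Hspa1b* in efficiency. These were 2 of 42 members each time, where 3.11%, 6.55% and 4% of all genes did so. With replicates left out, the median log2 fold change of the members lay between -0.09 and 0.02 in RNA, 0.01 and 0.06 in footprints, and -0.01 and 0.11 in efficiency. The lowest RNA median was that without WT 2.

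Differences in share between genotypes, KO minus WT in percentage points, changed sign when single replicates were left out for 9 of the 14 tests. They ranged from -0.788 to 2.07 for *Hsp90aa1* in footprints, from -0.00983 to 0.0102 for *Hspa1a* and *Hspa1b* in RNA and from -0.699 to 1.23 for *Hspa4l* in footprints. For *Dnaja1* the RNA values spanned -2.63 to 0.369 and the footprint values -3.02 to 1.54, and for *Hspe1* in RNA from -0.769 to 1.04. For *Calr* in RNA they ranged from -2.41 to 10.4, and for *Naca* the RNA values spanned -2.17 to 1.02 and the footprint values -1.27 to 2.07. The cause was not tested. The shares of *Hspe1* and of *Hspa1a* and *Hspa1b* in footprints kept their sign, at -1.17 to -0.685 and -0.0818 to -0.0457. The low counts of *Hspa1a*, *Hspa1b*, *Hspa2*, *Dnajb1* and *Dnaja3* in RNA limit what a change in them could show.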
